A study of Mus musculus with 4 samples.

Results

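Oxidative phosphorylation is run by protein complexes of the inner mitochondrial membrane, and their genes are split between 2 genomes. The genes described here were the rows of the deposited mouse matrix whose symbols begin with mt-Nd, mt-Co, mt-Cytb, mt-Atp, Nduf, Uqcr, Cox4 to Cox8 or Atp5, together with Sdha, Sdhb, Sdhc and Sdhd, without the symbols that contain -ps. This gave 106 genes of the 32285 in the matrix, 13 in the mitochondrial genome and 93 in the nucleus. All 106 had a position in the GRCm38 annotation and were protein-coding. The symbol rule leaves out some true subunits, such as Cyc1, the cytochrome c1 of complex III.

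The cells were primary cells from submandibular and sublingual glands of wild-type female C57BL/6N mice aged 6 to 8 weeks, a state the labels call physiological. The labels name no altered gene and no treatment, so there was no control group. The glands were taken apart with enzymes at 37 °C before single-cell RNA sequencing. The 4 deposited samples carried the same labels. The labels name 2 mice and the study's methods 3. All 15707 cell barcodes were in 1 matrix with 1 suffix and no repeated barcode. No cell could be traced to its sample, animal or gland, so the data counted as 1 sample and no test between samples was possible. Intervals below are 95% intervals for counting error only, since 1 pooled matrix gives no spread between animals.

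Electrons from NADH enter the respiratory chain at complex I and electrons from succinate at complex II. Complex III passes them to cytochrome c, complex IV passes them to oxygen, and complex V, the ATP synthase, uses the proton gradient that I, III and IV build. Complex II is encoded in the nucleus alone, and each of the others needs subunits from both genomes. In salivary glands the acinar cells make the fluid and most of the protein, while striated and granular ducts move ions against gradients and are rich in mitochondria.

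A cell's transcript count was measured in UMIs (unique molecular identifiers, 1 for each RNA molecule captured), and the median was 2608 UMIs and 689 genes per barcode. The level of a gene in a cell class was its UMIs per 10000 UMIs of that class. Transcripts of 94 secretory product genes took 77.5% of all UMIs and 91.2% of those in serous acinar-like cells, against 11.9% in Ascl3 duct-like cells. A second level, per 10000 UMIs without the secretory product transcripts, is therefore given beside the first. Each molecule is counted once at its 3' end, so gene length does not enter either scale.

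Cells fell into 24 clusters, 17 of them named from fixed marker lists and holding 60.3% of the cells. The names carry "-like" because no annotation of cells was used. Serous acinar-like cells passed 8 of 10 of their markers, kallikrein duct-like cells 11 of 13, Ascl3 duct-like cells 7 of 9, NK or ILC1-like cells 7 of 10 and macrophage-like cells 9 of 10. Ascl3 duct-like cells also passed 4 of 8 Slc13a2 duct markers. Slc13a2 duct-like cells rested on 3 of 8 markers and also passed 3 of 5 markers of Smgc-rich cells. Pericyte or smooth muscle-like cells passed 6 of 10 markers and 4 of 8 myoepithelial ones. Another 37.8% of the barcodes lay in 5 clusters with a median under 500 genes and were kept apart. Luminal duct-like cells below are the 2875 cells of the kallikrein, Ascl3 and Slc13a2 clusters and of 1 cluster of 480 cells with markers of both kallikrein and Ascl3 ducts. The member genes were left out of the variable genes used for clustering, but genes that move with them were not.

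Promoter sequences are shown for 2 pairs of alternative complex IV subunits that the results turn on, Cox7a2 with Cox7a1 and Cox8a with Cox8b, and for Sdhb of complex II, which held the most motif matches of the 5. All are RefSeq promoter windows of 300 bases on GRCm38.p6, written 5′ to 3′ on the gene's own strand, from 250 bases before the start. Capitals mark matches to the short motifs named in the text after the sequences.

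Cox7a2 promoter: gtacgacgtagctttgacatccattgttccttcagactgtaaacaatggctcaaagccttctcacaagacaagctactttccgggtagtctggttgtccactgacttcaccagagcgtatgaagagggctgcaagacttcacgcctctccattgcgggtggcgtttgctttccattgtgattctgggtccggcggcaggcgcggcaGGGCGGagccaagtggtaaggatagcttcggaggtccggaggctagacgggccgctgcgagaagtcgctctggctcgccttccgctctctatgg

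Cox7a1 promoter: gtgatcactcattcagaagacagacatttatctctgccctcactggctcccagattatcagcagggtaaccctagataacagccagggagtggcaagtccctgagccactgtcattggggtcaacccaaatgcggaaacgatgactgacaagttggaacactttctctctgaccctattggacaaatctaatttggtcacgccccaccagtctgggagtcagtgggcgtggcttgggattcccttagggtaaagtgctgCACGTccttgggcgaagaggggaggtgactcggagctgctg

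Cox8a promoter: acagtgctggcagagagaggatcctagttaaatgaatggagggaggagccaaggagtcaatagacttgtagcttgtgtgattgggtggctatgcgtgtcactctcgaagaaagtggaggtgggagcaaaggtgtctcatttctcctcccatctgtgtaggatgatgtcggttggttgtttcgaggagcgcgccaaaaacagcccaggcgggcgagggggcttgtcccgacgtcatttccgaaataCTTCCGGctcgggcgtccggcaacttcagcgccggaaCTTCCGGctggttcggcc

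Cox8b promoter: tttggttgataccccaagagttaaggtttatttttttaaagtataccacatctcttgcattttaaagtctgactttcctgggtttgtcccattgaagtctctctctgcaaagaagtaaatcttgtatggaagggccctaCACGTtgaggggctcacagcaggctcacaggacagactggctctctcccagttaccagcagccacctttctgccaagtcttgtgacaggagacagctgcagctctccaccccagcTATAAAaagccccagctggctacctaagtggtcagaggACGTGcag

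Sdhb promoter: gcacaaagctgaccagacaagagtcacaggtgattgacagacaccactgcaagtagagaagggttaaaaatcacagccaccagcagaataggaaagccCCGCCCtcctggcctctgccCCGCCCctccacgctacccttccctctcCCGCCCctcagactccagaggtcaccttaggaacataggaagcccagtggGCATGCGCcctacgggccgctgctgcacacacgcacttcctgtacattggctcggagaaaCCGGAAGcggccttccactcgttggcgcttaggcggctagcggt

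The Cox7a2 window lies at chr9:79759804-79760103 on the minus strand and the Cox7a1 window at chr7:30183921-30184220 on the plus strand. Cox8a lies at chr19:7217567-7217866 and Cox8b at chr7:140900397-140900696, both on the minus strand, and Sdhb at chr4:140961021-140961320 on the plus strand. The isoforms found in most cells had more CpG dinucleotides in their windows. Cox7a2 had 20 and Cox8a 19, against 7 for Cox7a1 and 2 for Cox8b. Cox8a held the ETS letters CCGGAAG at 2 places, read on the minus strand as CTTCCGG. Cox8b held a TATA match and 2 HIF matches, Cox7a1 held 1 HIF match, and Cox7a2 held 1 SP1 match. Sdhb held 5 matches, to NRF1, ETS and 3 times SP1.

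RefSeq held a promoter window for 75 of the 93 nuclear members. Both strands were searched for 6 motifs, none of which contains another's letters. The NRF1 core GCATGCGC stood in 16% of the members' windows and 2.71% of all 32851 windows. The letters CCGGAAG, read by GABPA and other ETS factors, stood in 24.0% against 8.86%, and the ERR site AAGGTCA in 10.7% against 4.72%. The SP1 box GGGCGG stood in 45.3% against 35.7%, the HIF core ACGTG in 22.7% against 19.6%, and TATAAA in 10.7% against 13.6%. These matches describe letters in a window and were not tested as binding sites.

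The 13 mitochondrial genes gave 2.34% of all UMIs and the 93 nuclear members 1.06%. On the mitochondrial genome mt-Atp6 (chrM:7927-8607), a proton channel subunit of the ATP synthase, had the most UMIs at 656842. The complex IV core subunits followed, with 497574 for mt-Co1 (chrM:5328-6872), 430483 for mt-Co3 (chrM:8607-9390) and 396319 for mt-Co2 (chrM:7013-7696). The cytochrome b gene mt-Cytb (chrM:14145-15288) had 360099. The complex I genes were lower, from 192755 for mt-Nd4 down through mt-Nd1, mt-Nd2, mt-Nd4l, mt-Nd5 and mt-Nd3 to 2162 for mt-Nd6. The last is the member on the other strand, at chrM:13552-14070, where it overlaps mt-Nd5 by 14 bases. The other overlaps are on 1 strand, 43 bases between mt-Atp8 and mt-Atp6, 7 between mt-Nd4l and mt-Nd4 and 1 between mt-Atp6 and mt-Co3, and the split of 3' reads between such neighbours is uncertain.

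Among nuclear members small subunits led. Cox8a of complex IV (chr19:7215153-7217616) had 65181 UMIs, Atp5e of the ATP synthase (chr2:174461072-174464105) 48485 and Uqcrh of complex III (chr4:116066965-116075071) 30989. Ndufb9, an accessory subunit of complex I on chromosome 15, had 24357, and Sdhb, the iron-sulfur subunit of complex II, 7297. Every member had at least 1 UMI, and 94 of 106 had at least 1000. Cox7b2 and Cox8c had 1 UMI each in all 15707 cells. In the last 400 bases of their transcripts, 26 members shared at least 1 stretch of 90 bases with another annotated gene, mostly pseudogenes. For mt-Co1, mt-Co3, mt-Atp6, mt-Co2, mt-Nd4l, mt-Nd3 and Atp5l most such stretches were shared, so their counts may miss reads.

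The levels of both genomes differed widely between classes on the first scale and much less on the second. In serous acinar-like cells the mitochondrial sum was 89.4 (interval 89.1 to 89.6) and the nuclear sum 46.6 (46.5 to 46.8) per 10000 UMIs. In Ascl3 duct-like cells the sums were 1400 (1396 to 1404) and 622 (619 to 625). Kallikrein duct-like cells were at 1092 and 370, and Slc13a2 duct-like cells at 446 and 271. Macrophage-like cells were at 383 and 181, and NK or ILC1-like cells at 342 and 243.

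Without the secretory product transcripts, serous acinar-like cells held 1010 mitochondrial and 527 nuclear UMIs per 10000. Ascl3 duct-like cells then held 1589 and 706, kallikrein duct-like cells 1803 and 610, and Slc13a2 duct-like cells 680 and 413. The order of the nuclear sum on this scale ran from Ascl3 through the mixed cluster (615) and kallikrein duct-like cells to serous (527), Dcpp-rich (511) and mucous (480) acinar-like cells. Pericyte or smooth muscle-like cells (442) and basal duct-like cells (378) were lower, and NK or ILC1-like (292), fibroblast-like (248) and macrophage-like cells (210) lower still. Thus acinar-like cells stood at the bottom of the named classes on the first scale and just under the Ascl3 and kallikrein ducts for the nuclear sum on the second.

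**Figure D1:**
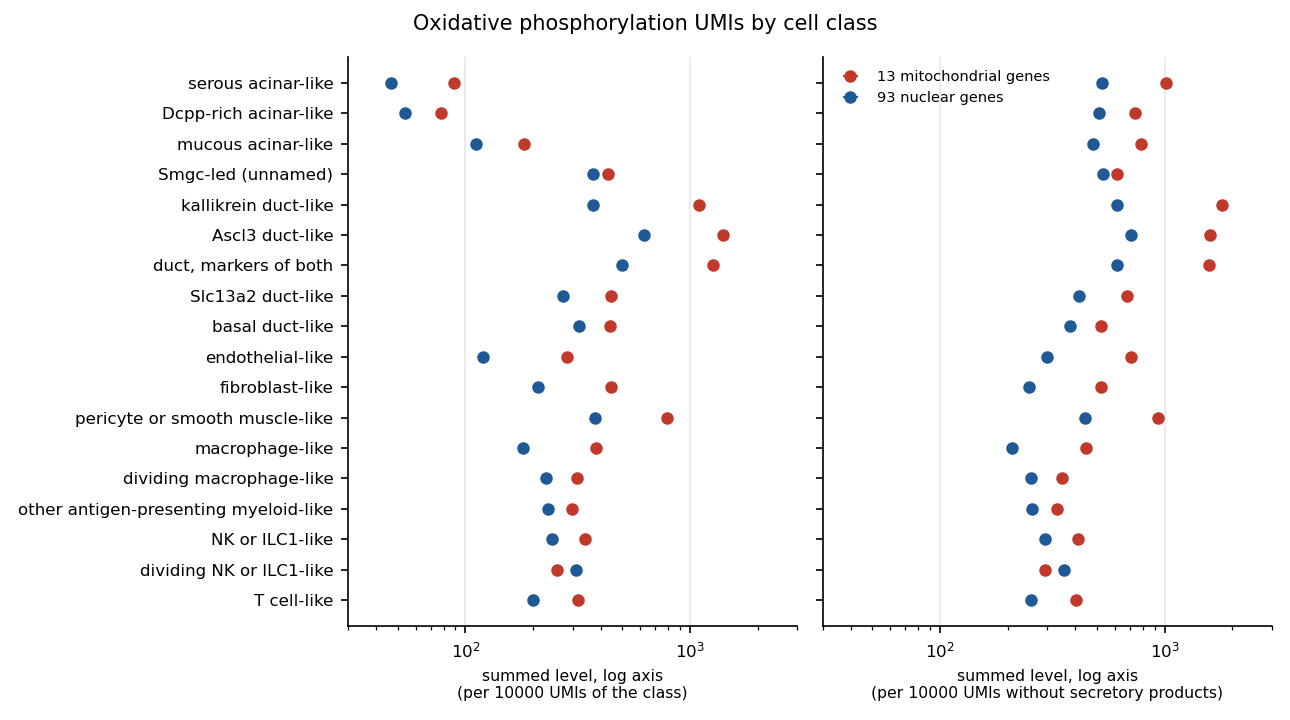
Summed level of the 13 mitochondrial genes (red) and the 93 nuclear genes (blue) in 18 cell classes, on log axes, left per 10000 UMIs of the class and right per 10000 UMIs without secretory product transcripts; the counting intervals are narrower than the points. Serous acinar-like cells are at 89.4 and 46.6 on the left and at 1010 and 527 on the right, while Ascl3 duct-like cells move little, from 1400 and 622 to 1589 and 706.

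Counted per cell, the classes were closer. The mean was 134 nuclear member UMIs per cell in serous acinar-like cells, 120 in kallikrein, 172 in Ascl3 and 110 in Slc13a2 duct-like cells. Mitochondrial UMIs per cell were 256, 354, 387 and 181 in the same order. The median depth of these classes was unequal, 26022 UMIs in serous acinar-like cells against 2642.5 in kallikrein and 2467 in Ascl3 duct-like cells, and the part of depth in the levels was not tested. Free RNA, estimated from serous secretory transcripts in 1138 lymphoid cells, came to 13.9 mitochondrial and 4.55 nuclear member UMIs per droplet.

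Luminal duct-like cells were compared with serous acinar-like cells member by member, a gene entering with at least 20 UMIs in either class and counting as higher from 2-fold. On the first scale all 89 nuclear members that entered were higher in duct, but so were 95.7% of all genes, and the sum was 3.27 log2 units higher (3.27 to 3.28). The median member, at 3.25, was below the median of all genes, at 3.43. On the second scale the nuclear sum was 0.20 higher on the log2 scale, 7 members were 2-fold higher and 1 lower, and the background was 27.6% higher and 11.7% lower. A member was thus called higher on the second scale less often than genes at large. Of the 89 members 63 lay above 0, but so did the median of all genes. The change of scale shifts every gene alike, so the median member stayed below that median. Counted per cell, 8 members were 2-fold higher, against 28.9% of all genes.

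The mitochondrial sum was 3.59 log2 units higher in duct on the first scale and 0.52 on the second. All 13 mitochondrial genes lay above 0 on the second scale, and 1 of them was 2-fold higher. The median over the 13 was 0.61, against 0.35 over all genes.

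The complexes did not share 1 difference. On the second scale the nuclear complex I sum was 0.09 lower in duct than in serous acinar-like cells (log2 -0.09, -0.10 to -0.08), while complex III was 0.31 higher, complex IV 0.48 higher and complex V 0.17 higher. Complex II, at 0.19, and the 8 assembly factors, at 0.07, lay between, the last with an interval of -0.02 to 0.16. In complex IV 5 of 16 entering members were 2-fold higher, near the share of all genes, 27.6%. In complex I none of 36 were.

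The extremes were named by rule. Cox7a1, a complex IV subunit best known from heart and skeletal muscle, was highest over serous acinar-like cells, with 2392 UMIs against 86. Its log2 difference was 7.41 on the first scale and 4.34 on the second. Cox6b2 followed with 116 against 10 UMIs (6.15 and 3.08) and Cox8b with 212 against 21 (5.95 and 2.88), both alternative complex IV subunits. Ndufaf5, a complex I assembly factor, had 98 against 22 UMIs (4.77 and 1.70). Cox6c, a common complex IV subunit, had 16832 against 6004 (4.10 and 1.03). At the other end, Ndufv3 and Ndufb9 of complex I were at 2.07 and 2.29 on the first scale. On the second scale they were lower in duct, Ndufv3 at 3.32 against 6.65 UMIs per 10000 and Ndufb9 at a log2 difference of -0.78. Ndufb9 held 14.7 in serous acinar-like cells and 8.59 in duct, and Sdhb 3.85 and 2.64. So Cox7a1, Cox6b2 and Cox8b were higher in luminal duct-like than in serous acinar-like cells on both scales. Some complex I subunits were more abundant in serous acinar-like cells on the second. This holds against serous acinar-like cells only, and other alternative complex IV genes had their highest levels outside the ducts, as described below.

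**Figure D2:**
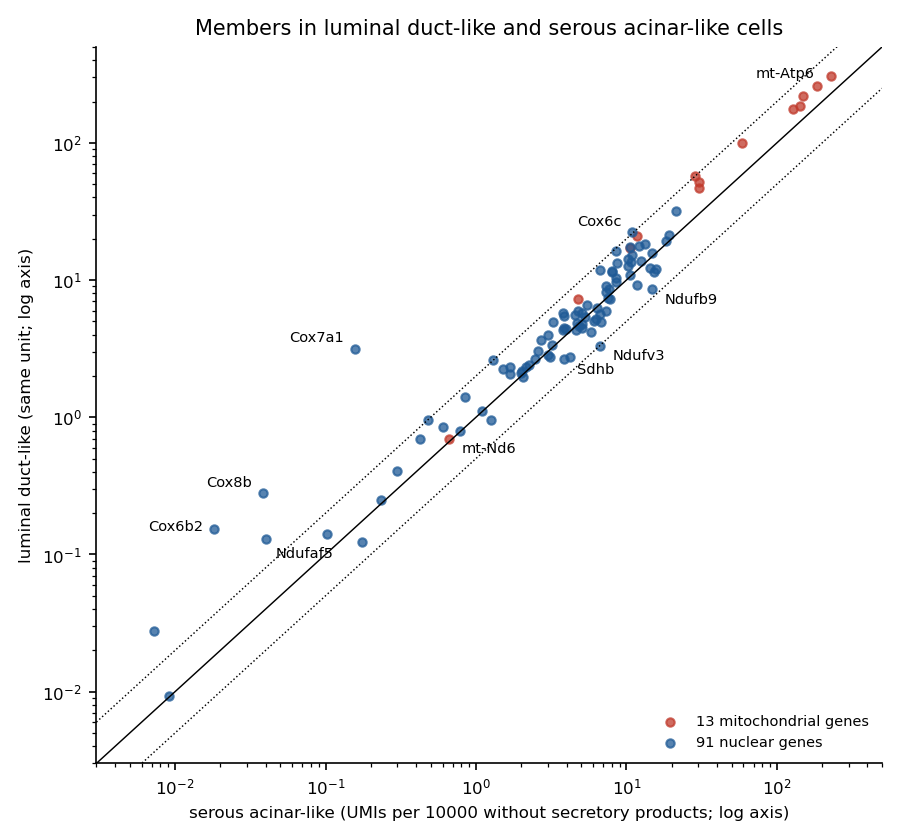
Level of each member in serous acinar-like cells (x) and luminal duct-like cells (y), both per 10000 UMIs without secretory product transcripts on log axes, for 104 genes with UMIs in both; the solid line marks equal levels and the dotted lines 2-fold. Most points lie between the dotted lines, Cox7a1, Cox8b, Cox6b2 and Ndufaf5 lie well above, and Ndufv3 lies on the lower line.

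The split by subtype showed that duct classes were not alike. Against serous acinar-like cells on the second scale, the nuclear sum was 0.42 higher in Ascl3 duct-like cells, with 9 of 88 members 2-fold higher against 20.4% of all genes. It was 0.21 higher in kallikrein duct-like cells, with 7 of 87 against 19.1%. In Slc13a2 duct-like cells it was 0.35 lower (log2 -0.35), with 3 of 88 members higher and 4 lower against 23.1% and 12%. The mitochondrial sum differed by 0.65, 0.84 and -0.57 in the same order. These 3 comparisons share the serous acinar-like cells.

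Immune cells are a comparison in which secretory transcripts weigh less. Luminal duct-like cells held 1.04 log2 units more nuclear member UMIs than immune cells on the first scale and 1.24 on the second. Of 89 members 52 were 2-fold higher, against 34.9% of all genes, and on the second scale 66, against 40.5%. By complex, 19 of 36 in complex I, 3 of 4 in II, 7 of 8 in III, 12 of 16 in IV, 9 of 17 in V and 2 of 8 assembly factors were higher on the first scale. The 1 lower member was Cox6a2, against a background of 16.1% lower. All 13 mitochondrial genes were higher, and their sum was 1.64 higher.

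Per subtype, 78 of 89 nuclear members were 2-fold higher in Ascl3 duct-like than in immune cells on the first scale (background 34.7%) and 75 on the second (33.5%). The count was 31 in kallikrein duct-like cells (20.8%), which became 64 on the second scale (31.9%), and 1 of 88 in Slc13a2 duct-like cells (23.7%), which became 19 (33.8%). The members' share was above the background in Ascl3 and kallikrein ducts on both scales and below it in Slc13a2 ducts on both.

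Ascl3 duct-like cells carry markers of ionocytes, such as the transcription factors Ascl3 and Foxi1 and subunits of the V-type proton pump. Their nuclear sum was 0.75 log2 units above that of kallikrein duct-like cells on the first scale and 0.21 on the second, where 16 of 88 and 2 of 88 members were 2-fold higher. The backgrounds were 22.1% and 8.8%. With clusters from 30 principal components the first value was 0.39. The mitochondrial sum was 0.36 higher on the first scale and 0.18 lower on the second (log2 -0.18), so its direction depended on the denominator. All 13 mitochondrial genes lay below 0 on the second scale.

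The assembly factors, which help build complex I without staying in it, were the group with the widest gap between these ducts. Of 8, 6 were 2-fold higher in Ascl3 duct-like cells on the first scale, against 22.1% of all genes. Their sum was 1.08 higher on the first scale and 0.54 on the second. On the second scale Ndufaf2, Ndufaf3 and Ndufaf7 were below 2-fold, at log2 differences of 0.91, 0.87 and 0.73. Ndufaf3 was at 0.818 against 0.309 UMIs per 10000 and Ndufaf2 at 0.412 against 0.150. These are low levels, with 236 and 80 UMIs for Ndufaf3.

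Single members set the subtypes apart more than the sums did. Cox7a1 was at 4.72 in Ascl3 duct-like cells and 1.22 in kallikrein duct-like cells, a log2 difference of 1.95 on the first scale and 1.41 on the second. Uqcr10, a small subunit of complex III on chromosome 11, was at 20.4 against 7.43 (1.46 and 0.92). Cox8b went the other way, at 0.0866 against 0.405, a difference of -2.23 and -2.77. Against all other luminal duct-like cells, Uqcrb of complex III was 0.99 higher in Ascl3 duct-like cells, at 14.6 against 7.35. The median over 86 nuclear members in the same comparison was 0.65.

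Slc13a2 duct-like cells were the lowest of the luminal ducts for both sums on both scales. Their nuclear sum was 0.45 log2 units below kallikrein duct-like cells (log2 -0.45, -0.46 to -0.43) on the first scale and 0.56 below on the second (-0.56). The difference was -0.13 counted per cell, -0.22 as a median over cells and -0.72 with clusters from 30 principal components. All 13 mitochondrial genes were at least 2-fold lower on both scales, and their sum differed by -1.29 and -1.41. Of 86 nuclear members 7 were 2-fold lower on the first scale against 6.35% of all genes, and 14 on the second against 7.63%. The median of all genes went the other way, at 0.28 and 0.17.

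Single members ranged widely around this difference. Over 86 nuclear members the median log2 difference from the other luminal duct-like cells was -0.91 on the first scale. Atp5b, the catalytic beta subunit of the ATP synthase, was at 5.73 UMIs per 10000 in Slc13a2 duct-like cells and 15.1 in the other luminal duct-like cells. Ndufs1, the largest iron-sulfur subunit of complex I, was at 0.304 against 0.820. Cox7a1 was at 0.295 against 2.93. At the other end Ndufaf8 was at 0.671 against 0.719 and Ndufa7 at 3.94 against 4.54. Against kallikrein duct-like cells alone these genes were higher in Slc13a2 duct-like cells, Ndufaf8 by a log2 difference of 0.58 (0.22 to 0.95) and Ndufa7 by 0.39 (0.25 to 0.53) on the first scale, and by 0.47 and 0.28 on the second.

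**Figure D3:**
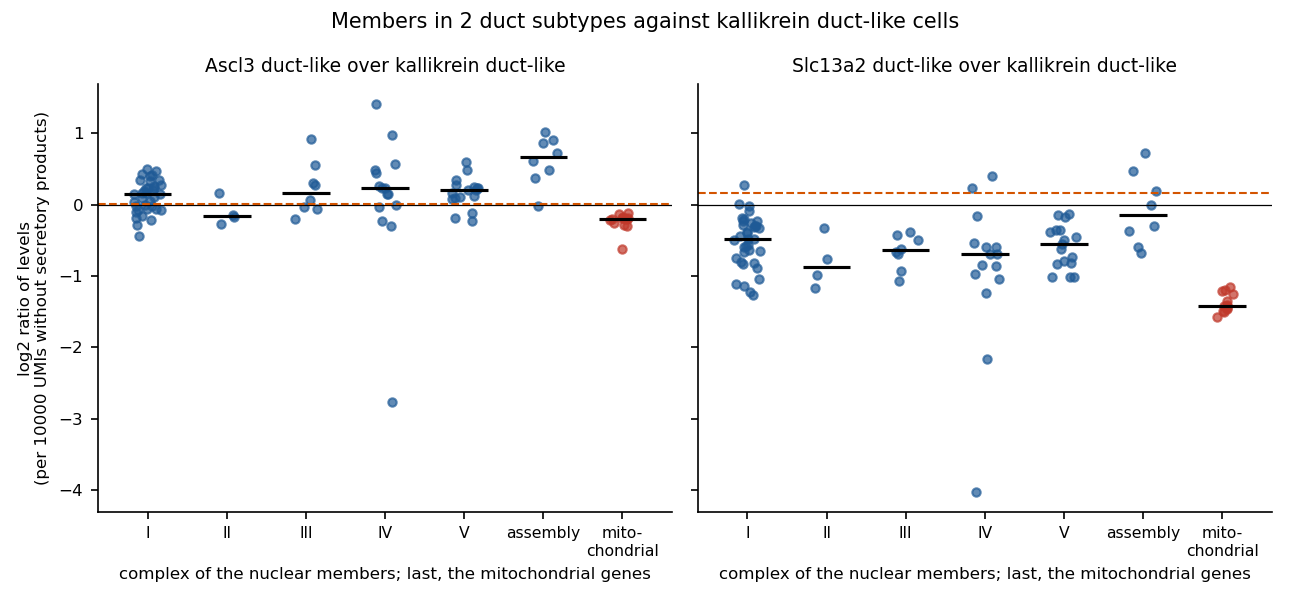
Log2 ratio of each member's level in Ascl3 duct-like (left) and Slc13a2 duct-like (right) over kallikrein duct-like cells, per 10000 UMIs without secretory product transcripts; points are genes with at least 20 UMIs in either class, black bars are medians by complex, and the dashed line is the median of all genes (0.01 left, 0.17 right). The mitochondrial genes (red) lie below 0 on the left and between -1 and -2 on the right, and the lowest point in both panels is Cox8b.

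Basal duct-like cells, marked by keratins 5 and 14, resembled the Slc13a2 ducts in the direction of both sums. Against luminal duct-like cells their nuclear sum differed by -0.49 and their mitochondrial sum by -1.29 on the first scale. Of 89 nuclear members 6 were 2-fold lower and 1 higher, against 11% and 10.4% of all genes. All 13 mitochondrial genes were 2-fold lower. The 1 higher member was Cox6b2.

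The ratio of mitochondrial to nuclear member UMIs needs no denominator. It was 1.92 in serous acinar-like cells, 1.45 in Dcpp-rich and 1.64 in mucous acinar-like cells. Kallikrein duct-like cells had the highest ratio of the named classes over all cells, 2.95 (2.93 to 2.98). The mixed duct cluster was at 2.55, Ascl3 duct-like cells at 2.25, Slc13a2 duct-like cells at 1.65 and basal duct-like cells at 1.38. Among other classes, endothelial-like cells were at 2.38, macrophage-like cells at 2.12 and NK or ILC1-like cells at 1.41. Dividing NK or ILC1-like cells had 0.824, the 1 named class in which nuclear UMIs exceeded mitochondrial ones.

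Cells with a high mitochondrial share moved with this ratio. Of kallikrein duct-like cells 142 of 800 had over 20% mitochondrial UMIs, as had 194 of 1043 Ascl3 duct-like cells and 5 of 2171 serous acinar-like cells. Without such cells and those under 200 genes, the ratio was 2.27 in kallikrein, 1.74 in Ascl3 and 1.91 in serous acinar-like cells. Ascl3 ducts were then below serous acinar-like cells, so that order turned with the filter, while kallikrein ducts stayed above. The limit of 20% is a share of all UMIs, however, and secretory product transcripts are among them. They took 91.2% of UMIs in serous acinar-like, 39.4% in kallikrein and 11.9% in Ascl3 duct-like cells. The filter thus does not cut these classes alike, and the filtered order is not a like comparison. Kallikrein ducts were then no longer the highest, since the mixed duct cluster was at 2.30 and endothelial-like cells at 2.29. Secretory product transcripts took 60.2% of UMIs in endothelial-like cells, against 14.8% in fibroblast-like cells. The part of free RNA in the endothelial-like values was not tested. For luminal duct-like cells together the ratio was 2.40 with all cells and 1.97 with the filter, near the serous value. What the cells with a high mitochondrial share are was not tested. The spread between cells was wide, with quartiles of 1.62 and 4.47 in kallikrein duct-like cells and 1.28 and 3.08 in serous acinar-like cells.

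**Figure D4:**
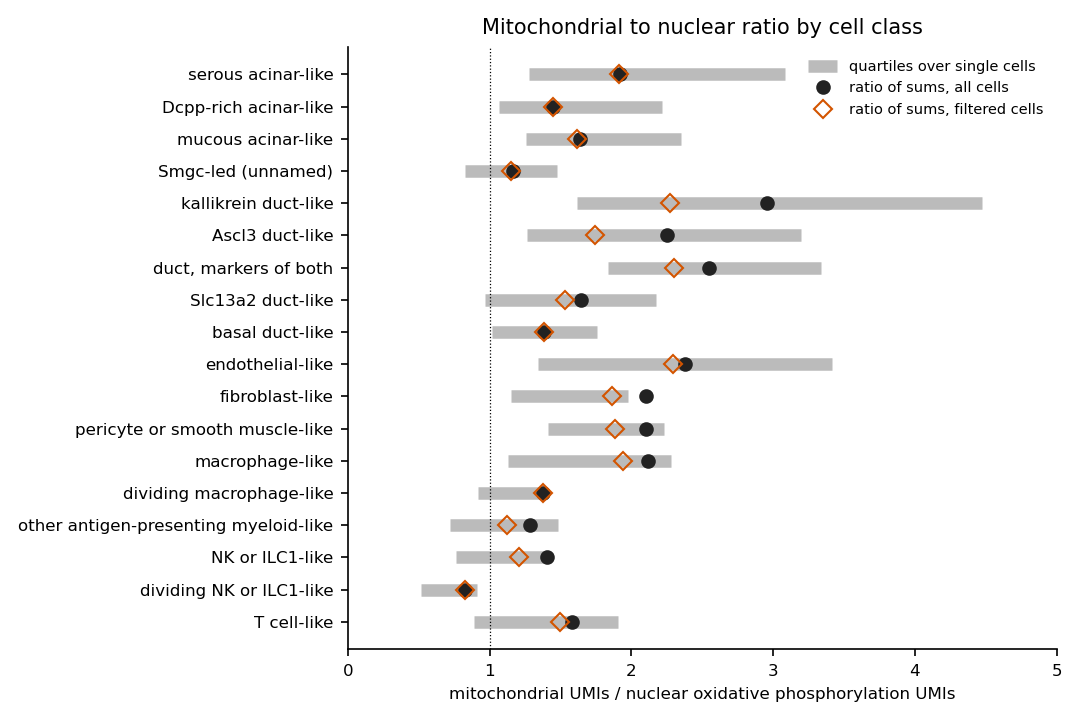
Mitochondrial UMIs divided by nuclear member UMIs in 18 classes; black points are ratios of sums over all cells, orange diamonds the same over cells with 200 or more genes and no more than 20% mitochondrial UMIs, and grey bars the quartiles over single cells. Kallikrein duct-like cells are at 2.95 and 2.27, Ascl3 duct-like cells at 2.25 and 1.74, and dividing NK or ILC1-like cells lie left of the dotted line at 1.

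The ratio also differed by complex. In serous acinar-like cells it was 1.08 for complex I, 2.11 for III, 3.60 for IV and 1.42 for V. In kallikrein duct-like cells it was 2.43, 3.13, 4.34 and 2.11, so complex I had the largest proportional gap between these classes. In Slc13a2 duct-like cells the values were 1.21, 1.75, 2.56 and 1.22. Complex IV had the highest ratio in each of these classes, and NK or ILC1-like cells kept that order with 1.03, 1.77, 2.11 and 1.03.

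Within the mitochondrial sum the shares of the genes varied within narrow ranges. The part of mt-Atp6 was 19.7% in the mixed duct cluster, the lowest of the named clusters, and 25.2% in dividing macrophage-like cells, the highest. The part of mt-Co1 was 18.3% in serous acinar-like and 14.2% in pericyte or smooth muscle-like cells. The 7 complex I genes together took 17% in serous acinar-like and 20.6% in kallikrein duct-like cells.

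Within the nuclear sum the balance of complexes I and IV varied more. Complex I took 30.1% and complex IV 25.1% in serous acinar-like cells, against 23.9% and 30.8% in Ascl3 and 25% and 30.7% in kallikrein duct-like cells. Slc13a2 duct-like cells were at 27.0% and 28.9%. Fibroblast-like cells had the acinar order, 31.4% and 26.2%, and pericyte or smooth muscle-like cells the ductal one, 27.1% and 32.2%. Complex V ran from 26.8% in pericyte or smooth muscle-like to 33.5% in dividing NK or ILC1-like cells.

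Several complex IV subunits exist as a common gene and an alternative gene, and the alternative genes had the most restricted patterns of all members. Relative to the nuclear sum of a class, the members at least 3-fold over all other cells were few. In the named classes they were Cox7a1 in Ascl3 duct-like, Cox8b in kallikrein duct-like, Cox6b2 in basal duct-like and Cox6a2 in NK or ILC1-like cells, with Cox4i2 and Ndufa4l2 in pericyte or smooth muscle-like and endothelial-like cells. Ndufa4l2 was also over that limit in fibroblast-like cells and Cox6a2 in dividing NK or ILC1-like and other antigen-presenting myeloid-like cells.

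Cox7a1 (chr7:30184144-30186078, plus strand) and Cox7a2 (chr9:79755361-79759878, minus strand) encode the alternative and the common form of the same subunit. Cox7a1 took 21.9% (20.9 to 22.9) of the pair's UMIs in Ascl3 duct-like cells, 17.2% in the mixed duct cluster and 11.2% (10.1 to 12.4) in kallikrein duct-like cells. In Slc13a2 duct-like cells it took 4.34%, within the range of classes outside the ducts. Among those, fibroblast-like cells were at 6.77%, endothelial-like cells at 5.54% and macrophage-like cells at 5.22%. Mucous acinar-like cells were at 3.64%, serous acinar-like cells at 1.05% and NK or ILC1-like cells at 1.07%. The low-gene cluster led by serous transcripts was at 9.76%. The intervals of the 3 duct subtypes did not overlap. The share needs no class total, so the secretory load does not enter it. Its promoter window above is the one with 7 CpG, against 20 for Cox7a2. The related Cox7a2l, a factor of complex III and IV assembly, was at 1.76 in Slc13a2 duct-like and 2.12 in the other duct-like cells.

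Cox8b (chr7:140898945-140900446, minus strand) is the counterpart of Cox8a. It took 2.38% (1.95 to 2.87) of the pair in kallikrein duct-like cells, with 105 UMIs, and 1.26% in the mixed cluster. It took 0.241% in Ascl3, 0.166% in Slc13a2 duct-like and 0.179% in serous acinar-like cells, whose intervals overlap. Thus Cox8b was highest in kallikrein ducts and Cox7a1 was highest in Ascl3 ducts. Cox8a itself was at 35.9 UMIs per 10000 in Ascl3, 16.6 in kallikrein, 16.1 in Slc13a2 duct-like and 1.88 in serous acinar-like cells on the first scale, and at 40.7, 27.4, 24.6 and 21.2 on the second.

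Cox6a2 (chr7:128205435-128206387, minus strand), the heart and muscle form of Cox6a1, was found mainly in NK or ILC1-like cells, which are lymphoid cells of the innate immune system. It took 371 of 753 UMIs of the pair in NK or ILC1-like cells, 49.3% (45.6 to 52.9), and 37.8% in dividing NK or ILC1-like cells. In these cells Cox6a2 was at 1.81 and Cox6a1 at 1.86 UMIs per 10000. Other antigen-presenting myeloid-like cells were at 15.4% and macrophage-like cells at 3.68%. T cell-like cells had 0 of 32 UMIs, which allows up to 10.9%, and Ascl3 duct-like cells 0 of 1718, which allows up to 0.214%.

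Cox4i2 (chr2:152754173-152765037, plus strand) and Ndufa4l2 (chr10:127514967-127517154, plus strand) are both known as hypoxia-responsive forms. Both took their largest shares in pericyte or smooth muscle-like cells, but their order in fibroblast-like and endothelial-like cells differed. Cox4i2 took 107 of 260 UMIs of its pair with Cox4i1 in pericyte or smooth muscle-like cells, 41.2% (35.1 to 47.4). Endothelial-like cells were at 7.14%, fibroblast-like cells at 0.528%, and the immune classes had 0 of 3458. Ndufa4l2 took 71.4% (65.7 to 76.6) of its pair with Ndufa4 in pericyte or smooth muscle-like cells, 30.2% in fibroblast-like and 10.7% in endothelial-like cells. In luminal duct-like cells it took 0.0509%. The levels in pericyte or smooth muscle-like cells were 5.85 for Cox4i2 beside 8.36 for Cox4i1, and 11 for Ndufa4l2 beside 4.43 for Ndufa4. This class had 86 cells.

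Cox6b2 (chr7:4751792-4753094, minus strand), known from testis, was rare, with 240 UMIs in all. It took 3.10% (2.05 to 4.47) of its pair with Cox6b1 in basal duct-like cells, from 27 UMIs, 1.41% in Ascl3 duct-like cells and 0.169% in serous acinar-like cells. The 3 genes for the membrane ring of the ATP synthase, Atp5g1, Atp5g2 and Atp5g3, encode the same mature protein and differed in their shares. Serous acinar-like cells were at 50.4%, 25.6% and 24.0%, luminal duct-like cells at 41.3%, 26.0% and 32.6%, and immune cells at 33.5%, 50% and 16.5%. Within the ducts Atp5g2 took the larger part in Slc13a2 duct-like cells, 36.7% against 33.5% for Atp5g1, and 38.0% against 36.8% in basal duct-like cells.

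**Figure D5:**
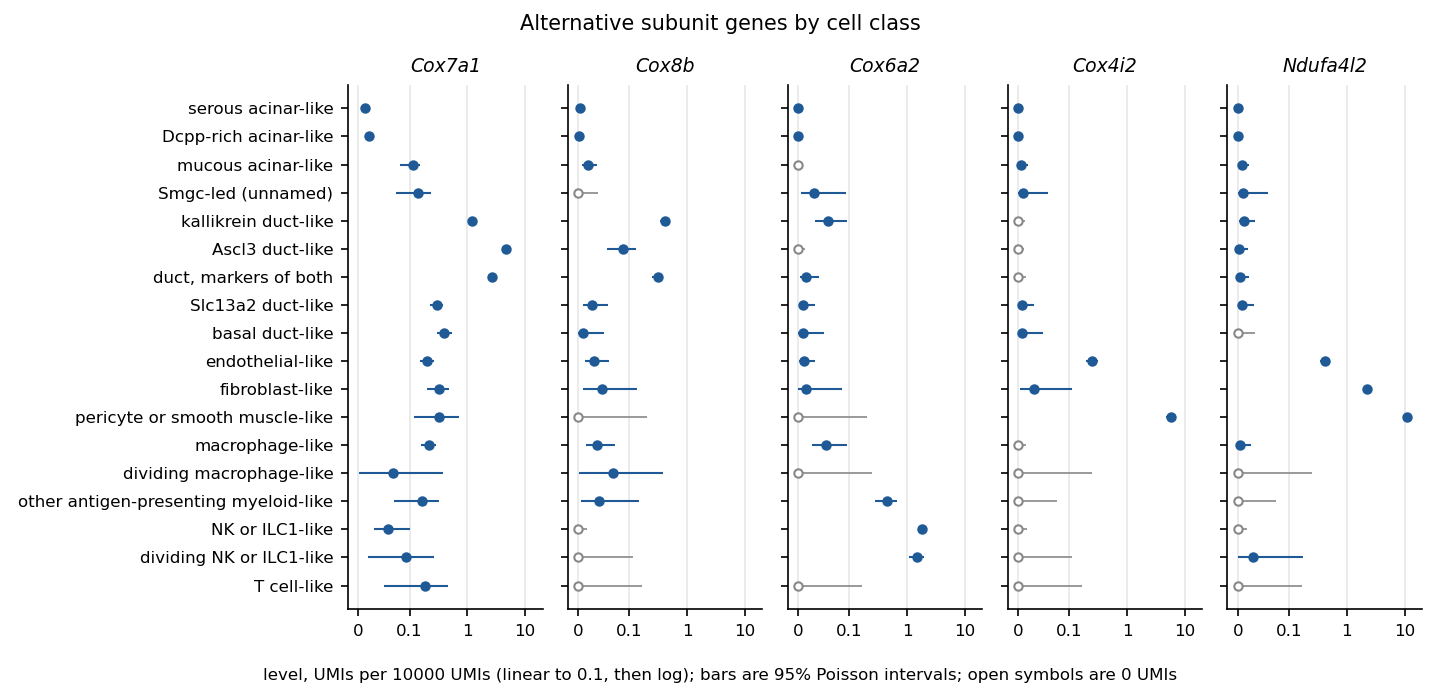
Level of 5 alternative subunit genes in 18 classes, in UMIs per 10000 UMIs on an axis that is linear to 0.1 and then logarithmic; bars are 95% Poisson intervals and open grey symbols are classes with 0 UMIs. Cox7a1 peaks in Ascl3 duct-like cells (4.72), Cox8b in kallikrein duct-like cells (0.405), Cox6a2 in NK or ILC1-like cells (1.81), and Cox4i2 (5.85) and Ndufa4l2 in pericyte or smooth muscle-like cells.

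Outside the epithelium the lymphoid and myeloid classes were compared on the first scale. NK or ILC1-like cells held 0.43 log2 units more nuclear and 0.16 fewer mitochondrial UMIs (log2 -0.16) per 10000 than macrophage-like cells, with 3 of 84 nuclear members 2-fold higher and 1 lower against 19.7% and 18.5%. Dividing NK or ILC1-like cells had 0.35 more nuclear and 0.42 fewer mitochondrial UMIs (log2 -0.42) than the others, with 1 of 83 members 2-fold higher against 8.19%. Dividing macrophage-like cells showed 0.34 and -0.28 against macrophage-like cells, from 37 cells. Both dividing classes thus had more nuclear and fewer mitochondrial member UMIs per 10000 UMIs. Counted per cell, mitochondrial UMIs were higher in dividing cells, 87.4 against 67.5 for NK or ILC1-like and 125 against 92.4 for macrophage-like cells. Dividing cells were also deeper, with medians of 3075 against 1824 UMIs and 3740 against 2140 in the same order. Pericyte or smooth muscle-like cells were 0.83 above fibroblast-like cells for both sums, with 18 of 84 nuclear members 2-fold higher against 9.47%.

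Genes of the pathways that feed the chain were read on lists of their own. The 18 TCA cycle genes, which supply NADH and succinate, included 17 that were 2-fold higher in luminal duct-like than in immune cells, with a median of 1.60. Fatty acid oxidation had 12 of 14, glycolysis 11 of 17 with 2 lower, regulators of mitochondrial biogenesis 8 of 15, carriers and shuttles 5 of 11 and mitochondrial antioxidants 2 of 5. Mitochondrial ribosomal proteins had 8 of 78, and cytosolic ribosomal proteins had 62 of 81 lower, where 16.1% of all genes were lower. The 10 ATP using pumps had 8 higher with a median of 3.32, but this list shares genes, Atp1b1, Atp6v1b1 and Atp6v0d2 among them, with the duct markers that named the classes. The background for higher genes is the 34.9% given above.

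Against serous acinar-like cells on the second scale, where 27.6% of all genes were higher and 11.7% lower, the TCA cycle had 3 of 18 and fatty acid oxidation 3 of 14. Glycolysis had 11 of 17, pumps 8 of 10, biogenesis regulators 2 of 15, carriers 3 of 11 and antioxidants 1 of 5. Mitochondrial ribosomal proteins had 1 higher and 7 lower of 78, and cytosolic ones 12 lower of 81. So glycolysis and pumps were above the background in duct, as the members were not. Immediate early and heat shock genes, which enzyme dissociation can switch on, also had 7 of 11 higher in duct, with a summed level on this scale of 207 against 82.8 UMIs per 10000, 276 in Slc13a2 duct-like and 37.9 in NK or ILC1-like cells. Their part in the differences was not tested.

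Among regulators, Ppargc1a, a coactivator of mitochondrial genes, was at 2.81 UMIs per 10000 in kallikrein, 2.43 in Ascl3, 1.00 in Slc13a2 duct-like and 0.245 in serous acinar-like cells on the second scale. The oestrogen-related receptor gene Esrra was at 1.03, 1.26, 0.443 and 0.556 in the same order. Its relative Esrrg was at 1.25, 0.484, 0.177 and 0.443, highest in kallikrein ducts. Tfam, the packaging factor of mitochondrial DNA, was at 0.255, 0.275, 0.252 and 0.194. Cycs, the cytochrome c that complexes III and IV share, was at 6.04, 9.48, 2.84 and 3.65. Slc13a2 duct-like cells were thus below both other ducts for Ppargc1a, Esrra, Esrrg and Cycs, of which Cycs is on the carrier list. Their Esrrg value came from 26 UMIs. Their Ppargc1a was above that of serous acinar-like cells, and Tfam was nearly level among the ducts. Other regulators did not follow, such as Gabpa, at 0.211 in Slc13a2 and 0.172 in kallikrein duct-like cells, from 31 and 27 UMIs. Against kallikrein ducts on the second scale, 5 of 15 regulators were 2-fold lower in Slc13a2 ducts and 4 of 18 TCA cycle genes, with 1 higher, where 7.63% of all genes were lower and 12.5% higher.

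The glycolytic list differed between the ducts, its sum being 0.67 log2 units higher in Ascl3 than in kallikrein duct-like cells on the second scale, while the TCA cycle sum differed by 0.03. Ldhb, a lactate dehydrogenase subunit chosen after its values were seen, was at 10.3 in Ascl3, 3.59 in kallikrein and 0.192 in serous acinar-like cells on the same scale.

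Over the 17 named classes the nuclear members moved together on the second scale. The correlation of log2 levels between a member and the sum of the other nuclear members was above 0.8 for 73 of 81 members with at least 1000 UMIs (90.1%), against 3.53% of 3771 other genes correlated with the nuclear sum. These points share class totals and unequal depth, so the values are descriptions. The highest was Atp5k at 0.977. The lowest were Atp5g2 at 0.33, Ndufaf8 at 0.47 and Cox7a2l at 0.55. The 5 genes outside the rule most like the nuclear sum were Mdh1 (0.969), Cyc1 (0.963), Fmc1 (0.948), Slc25a5 (0.936) and Mrpl12 (0.933). The mitochondrial sum followed the nuclear sum with a correlation of 0.857 on the second scale and 0.923 on the first.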

How the data were processed

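Single-cell suspensions of mouse submandibular and sublingual glands were sequenced on the 10x Genomics 3' platform. The authors deposited 1 matrix of raw UMI counts without normalization, and its header names Cell Ranger 6.0.1. The submitters' processing notes name mm10 and Seurat 4.1.1, and the gene annotation is not given in the sources used here. Every row named a gene and 0 columns were left unused. The study's saliva and microbiome data are not used here.

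No barcode was removed, which left 15707. Counts were log-normalized and clustered with Seurat 5.3.0 (R 4.3.3) on 1995 variable genes, 20 principal components and a resolution of 0.5. A cluster was named from at least 3 markers, each with a UMI in at least 25% of its cells and a level above that of other cells. Scrublet called 0 doublets, so it did not work here, and none were removed. Sums of UMIs per class were computed in Python 3.11.15 (numpy 2.4.6, scipy 1.17.1, pandas 2.3.3, scanpy 1.11.5, matplotlib 3.10.9), with exact Poisson intervals for levels, exact binomial (Clopper-Pearson) intervals for shares and ratios, and a normal approximation on log counts for ratios of ratios. PCR and capture errors are not covered by these intervals. Gene positions came from GENCODE M21. The 2-fold rule and the intervals for levels and ratios were checked on simulated counts with Poisson error only, which covers no wider spread. With 1 pooled sample no test between groups was run, and no p-value is given.

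The members, gene lists, marker lists and alternatives were chosen with earlier results of these data known. Named were the mitochondrial members, the most abundant nuclear member of each complex, the isoform sets, the 5 highest and 5 lowest members of a comparison with at least 100 UMIs (of which the text gives some), members at least 3-fold higher in 1 class, and the 5 genes outside the rule most like the nuclear sum, on log2 levels with a pseudocount of 0.1. Alternatives comprised 9 planned ones (denominators, cell filter, clustering settings, free RNA, doublets and medians over cells) and 3 added after seeing the data.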

Additional observations from a re-analysis of the deposited data

Results flagged for a closer look

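One cluster of 95 barcodes with few genes lay outside the comparisons and had a mitochondrial to nuclear ratio of 23.4964, where the named classes were between 0.824 and 2.95. The median over its barcodes was 4.53, 38 of the 95 had over 20% mitochondrial UMIs, and over the barcodes that passed the filter the ratio was 1.60. Its cells were not named, and what they are was not tested.

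Ndufb1-ps, which the symbol rule left out for its -ps suffix, had 17973 UMIs in all cells. Its level was 7.83 UMIs per 10000 in Ascl3, 3.91 in kallikrein, 3.92 in Slc13a2 duct-like, 0.652 in serous acinar-like and 3.82 in immune cells. Without secretory product transcripts the levels were 8.89, 6.45, 5.98, 7.37 and 4.48 in the same order. Whether these reads come from this locus or from another copy was not tested.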

How the results depend on the processing

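The last of the 6 summary results is a count, which has no direction. The others are differences, and each kept its direction under the alternatives run for it, but most moved by more than their counting interval. The nuclear difference of luminal duct-like over serous acinar-like cells was log2 3.27. It was 0.20 without secretory product transcripts and 0.25 per cell, 3.35 with filtered cells, 3.32 at resolution 0.8, 3.33 with 30 principal components, 3.32 with the members kept for clustering, 3.46 with free RNA taken away and 3.33 without the highest Scrublet scores. Alternatives added after seeing the data gave 3.22 without the mixed duct cluster and 3.06 with the low-gene serous-led cluster joined to the serous cells. The mitochondrial difference, 3.59, came to 0.52, 0.57, 3.41, 3.54, 3.56, 3.62, 3.80, 3.58, 3.51 and 3.14 in that order, and to 3.53 as a median over cells. The difference in the ratio, 0.32, became 0.0685 with filtered cells, 0.22 at the other resolution, 0.23 with 30 components, 0.31 with members kept, 0.34 without free RNA, 0.25 without high Scrublet scores, 0.17 as a median, 0.29 without the mixed cluster and 0.0742 with the low-gene cluster joined.

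The nuclear difference of Ascl3 over kallikrein ducts, 0.75, became 0.21 without secretory transcripts, 0.52 per cell, 0.69 filtered, 0.56 at resolution 0.8, 0.39 with 30 components, 0.56 with members kept, 0.77 without free RNA, 0.54 without high Scrublet scores, 0.80 as a median and 0.52 with the mixed cluster joined to kallikrein ducts. Slc13a2 over kallikrein ducts, -0.45, became -0.56, -0.13, -0.52, -0.65, -0.72, -0.63, -0.48, -0.69, -0.22 and -0.67 in that order. The count of nuclear members 2-fold higher in duct, 89, fell to 7 without secretory transcripts and to 8 per cell, and was 88 or 89 otherwise. Of all genes 95.7% were 2-fold higher in the main setting, 27.6% without secretory transcripts and 28.9% per cell. The counts of 7 and 8 were thus below the background share. Secretory transcripts take 91.2% of serous UMIs, and the median depth was 26022 UMIs in serous acinar-like against 2717 in luminal duct-like cells. The causes of the shifts between settings were not tested. No paired analysis was possible because the matrix does not map cells to samples, and for the same reason no replicate could be left out.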

Other observations

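A pair of clusters without a class name also held clear member levels. A Smgc-led cluster of 233 cells had the lowest ratio among the epithelial clusters, 1.17, with 430 mitochondrial and 369 nuclear member UMIs per 10000, and without secretory product transcripts its nuclear sum was level with serous acinar-like cells (log2 0.00) while the mitochondrial sum differed by -0.71. A cluster of 61 cells with NK and duct markers together had 869 and 431 UMIs per 10000, between NK or ILC1-like (342 and 243) and Ascl3 duct-like cells (1400 and 622). Cox7a1 took 16.9% of its pair with Cox7a2 there. The low-gene clusters led by serous, Dcpp, macrophage and collagen transcripts had ratios of 3.21, 2.83, 2.53 and 2.71, above the serous acinar-like value of 1.92.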
